A study of Mus musculus with 2 samples.

Results

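The ion channel genes of excitable tissue were taken as all protein-coding genes of the mouse RefSeq annotation (build GRCm38, the same as mm10) whose symbol begins with Kcn, Cacn, Scn followed by a digit, Gabr, Gria, Grik or Grin. The rule named 170 of 21887 protein-coding genes: 94 Kcn genes (potassium channels), 26 Cacn genes (calcium channels), 14 Scn genes (sodium channels), 19 Gabr genes (GABA-A receptors), and 4 Gria, 5 Grik and 8 Grin genes (AMPA, kainate and NMDA glutamate receptors). The rule used symbols only and no measured value. Accessible chromatin at these loci was read from ATAC-seq, in which a transposase inserts adapters into open DNA. The cells were hematopoietic stem cells of wild-type C57BL/6J mouse bone marrow, sorted as CD48-CD150+LSK. In the control group they carried the empty MSCV retrovirus. In the H1C group they carried MSCV with H1C, a linker histone that binds the nucleosome and the DNA entering and leaving it. About 1000 cells entered each library, and the age, sex and number of the mice are not given in the sources used here. Whether transduced cells were selected before the assay, and how much H1C they made, is not given either.

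An ion channel is a membrane protein with a pore that passes ions down their gradient. Voltage-gated sodium and calcium channels start and carry action potentials, potassium channels end them and set the resting potential, and receptors for glutamate and GABA open at synapses. Their genes are known for strong expression in neurons, muscle and endocrine cells, and many are long genes with large introns. Some members also work outside excitable tissue: Kcna3 and Kcnn4 set the membrane potential of lymphocytes, and Kcnn4 also acts in red cells. RNA was not measured, so the data speak only of open chromatin and not of expression.

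Each group held 1 library, so no difference between control and H1C has a replicate check and no test was possible. A region is an entry of the authors' list of accessible regions after touching entries were merged. Control held 31843 regions and H1C 13012 on chromosomes 1 to 19, X and Y. The lowest local background of any entry, taken as the background of the genome, was 3.99 in control and 4.40 in H1C. It is the only measure of depth that the lists hold. The pileup is the number of stacked reads or fragments at a summit. Fold is the authors' ratio of that pileup to the local background, and both are set beside the values at protein-coding genes of all kinds. In a bulk library, fewer cells with an open locus and a less open locus in each cell cannot be told apart.

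The sequences that go with the main findings are shown first. Each is a stretch upstream of an annotated transcript start in RefSeq (build GRCm38.p6), written 5′ to 3′ on the strand of the gene. Capitals mark CG dinucleotides, except in Kcnn4, where they mark TGTGGT, the core of the RUNX motif. The first line is the promoter of Kcnab2, the channel gene with the highest fold among those open at an end in both libraries (chr4:152477550-152477799, minus strand, 20 CG). The next is an internal promoter of the same gene that was also open in both (chr4:152448856-152449105, minus strand, 3 CG). Kcnn4 follows, open in both libraries (chr7:24370032-24370060, plus strand). Kcnj2 had a strong region in control only (chr11:111065914-111066163, plus strand, 14 CG). An internal promoter of Cacna1d had no region in either library although it was 86.4% G or C (chr14:30353487-30353736, minus strand, 50 CG). The last belongs to Kcnq1ot1, a noncoding RNA gene inside Kcnq1, and was overlapped by the intragenic region with the highest fold in H1C (chr7:143296548-143296797, minus strand, 5 CG).
Kcnab2 promoter: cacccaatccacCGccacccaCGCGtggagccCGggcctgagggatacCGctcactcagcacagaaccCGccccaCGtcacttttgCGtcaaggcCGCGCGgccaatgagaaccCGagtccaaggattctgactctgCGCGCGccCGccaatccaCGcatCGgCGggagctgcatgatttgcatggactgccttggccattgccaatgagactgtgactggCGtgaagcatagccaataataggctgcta
Kcnab2 internal promoter: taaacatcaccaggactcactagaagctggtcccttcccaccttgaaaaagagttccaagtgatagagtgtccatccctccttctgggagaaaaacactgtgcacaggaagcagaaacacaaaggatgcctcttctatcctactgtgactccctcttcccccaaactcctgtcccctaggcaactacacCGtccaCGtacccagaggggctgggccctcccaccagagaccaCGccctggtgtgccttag
Kcnn4 promoter, 29 of the 250 bases: tgctcTGTGGTgtctgggTGTGGTggggg
Kcnj2 promoter: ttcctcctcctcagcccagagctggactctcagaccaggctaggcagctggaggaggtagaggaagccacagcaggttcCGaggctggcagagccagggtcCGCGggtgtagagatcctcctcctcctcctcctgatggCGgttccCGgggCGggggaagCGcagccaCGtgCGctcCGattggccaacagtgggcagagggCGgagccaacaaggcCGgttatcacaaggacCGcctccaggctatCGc
Cacna1d internal promoter: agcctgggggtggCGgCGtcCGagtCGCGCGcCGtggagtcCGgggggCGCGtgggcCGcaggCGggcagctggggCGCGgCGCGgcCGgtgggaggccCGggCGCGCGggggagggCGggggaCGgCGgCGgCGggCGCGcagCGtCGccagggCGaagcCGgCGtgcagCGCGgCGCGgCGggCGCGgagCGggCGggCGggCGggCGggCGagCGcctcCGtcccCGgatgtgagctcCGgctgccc
Kcnq1ot1 promoter: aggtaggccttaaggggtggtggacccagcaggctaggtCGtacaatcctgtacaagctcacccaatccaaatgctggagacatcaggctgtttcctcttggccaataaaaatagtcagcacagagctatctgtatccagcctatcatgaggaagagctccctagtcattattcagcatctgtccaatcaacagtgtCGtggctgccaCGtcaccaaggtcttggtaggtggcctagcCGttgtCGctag

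For comparison, the 250 bases upstream of a start held a median of 10 CG over the 21263 promoter windows of all protein-coding genes in the table, 19 where the window was open in both libraries, 14 where it was open in control only and 4 where it was open in neither. Of the 3 Kcnab2 windows in the table, the 2 printed (20 and 3 CG) were open in both libraries, and another internal one (chr4:152452946-152453195, 5 CG) was open in neither. The Kcnn4 window of 250 bases held TGTGGT 4 times, counting both strands, and this motif was present in 12.4% of all windows. GGGCGG, the GC box, was found in 42.6% of all windows, and Kcnab2 held it once in its first window and not in the internal ones. A match describes letters only. Promoter windows matched 124 of the 170 channel genes (72.9%). This is under the minimum of 80% for a check over a set, so a comparison of base composition across the channel genes is void and only single windows are described. Of the 164 windows matched, 10 were open in control and 4 in H1C, and those 4 were also open in control. Of the 21263 windows of all protein-coding genes, 9128 were open in control, 6576 in H1C and 6531 in both.

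Most channel genes had no accessible region at either end in these stem cells. A gene-end region is one within 1000 bp of the start or end of the gene. In control, 25 of 170 channel genes had one (14.7%, exact Clopper-Pearson 95% interval 9.75 to 20.9%), against 46.9% of all protein-coding genes. In H1C, 5 of 170 had one (2.94%, interval 0.962 to 6.73%), against 33.6% of all genes. These 5 were also open in control, 20 were open in control only, 145 in neither library, and 0 in H1C only. Over all genes, the share open in neither was 52.8% and the share open in H1C only was 0.288%. Intervals cover counting error only, and amplified fragments are not independent molecules.

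Of the 25 channel genes open at an end in control, 5 also had a gene-end region in H1C (20.0%, interval 6.83 to 40.7%), against 71.0% of all genes with a control gene-end region. The control-only share over all genes was 29.0%. The channel regions were weaker. Their median control pileup was 30 against 49 for all genes, and their median control fold was 4.21 against 6.81. All genes weighted to the pileups of the 25 channel genes would have kept 43.0%, which corresponds to 10.8 of 25. The counts moved with the window: within 2500 bp of an end, 15 of 43 channel genes open in control were also open in H1C, and within 500 bp 3 of 15. The nearest cases inside the 1000 bp limit were Kcnk4 at 996 bp and Kcnh6 at 962 bp in control. The nearest cases outside it were Kcnk13 at 1047 bp in control and Kcnh6 at 1017 bp in H1C.

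**Figure D1:**
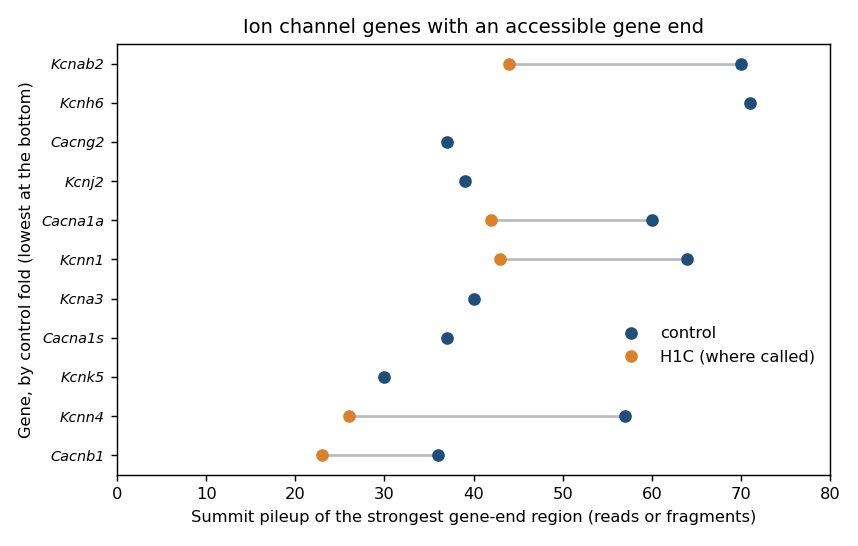
Summit pileup (reads or fragments) of the strongest gene-end region of 11 channel genes, the 5 open at an end in both libraries and the 6 open in control only with a control fold above 5, ordered by control fold. Blue points are control and orange points H1C where a gene-end region was called, with 1 library each. The H1C region at the same place near Kcnh6, 1017 bp from the gene, is not drawn. The 5 orange points, at 23 to 44, lie to the left of the blue point of the same gene.

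Kcnab2, a beta subunit that binds voltage-gated potassium channels from the inside of the cell, stood first among the genes open in both libraries. The region lay at its start (chr4:152477416-152478215) and covered the CG-rich promoter printed above. Its pileup was 70 in control and 44 in H1C. After scaling by the background ratio of 1.10, the log2 of the H1C pileup over the control pileup was -0.81 (exact conditional binomial 95% interval -1.39 to -0.25). Nphp4, a cilium gene, begins at the same place, and its promoter window lay under the same region, so the region cannot be given to Kcnab2 alone. A second Kcnab2 region (chr4:152448033-152448966) overlapped the internal promoter, with a pileup of 44 in control and 32 in H1C and a log2 ratio of -0.60 (-1.31 to 0.09).

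Both calcium-activated potassium channel genes that were open at an end in control were also open in H1C. Kcnn1, a small-conductance channel of neurons, had a region at its start (chr8:70865397-70866004) with a pileup of 64 in control and 43 in H1C, a log2 ratio of -0.72 (-1.31 to -0.14). Kcnn4, the intermediate-conductance channel of lymphocytes and red cells, had a region at its start (chr7:24369721-24370226). Its pileups of 57 in control and 26 in H1C gave a log2 ratio of -1.27 (-2.00 to -0.58), the lowest of the 5. The H1C summit of Kcnn4 passed with a −log10 q of 3.71, against 19.2 in control.

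The other two genes open in both were calcium channel genes. Cacna1a encodes the pore of the calcium channel that drives transmitter release at many synapses. Its region (chr8:84639142-84639765) lay inside the gene near the end coordinate, close to an end of the noncoding gene Gm39212. Control had a pileup of 60 and H1C of 42, with a log2 ratio of -0.66 (-1.26 to -0.06). Cacnb1, the beta subunit of the skeletal muscle calcium channel, was open near its transcription end (chr11:98000452-98000665). Pileups were 36 in control and 23 in H1C, and the interval of the log2 ratio of -0.79 (-1.61 to 0.01) reached 0. In all 5 genes the depth-scaled ratio was below 0, and in 4 of them the interval stayed below 0. Over all genes, 6311 of 6379 gene-end regions called in both libraries (98.9%) were below 0, with a median of -0.84.

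Among the genes open at an end in control only, Kcnh6 had the highest fold, 7.66, with a pileup of 71. Kcnh6 is a voltage-gated potassium channel of the erg type, and the region (chr11:106036557-106037226) lay beyond its transcription end, at the start of Dcaf7. The same place was called in H1C with a pileup of 44 and a log2 ratio of -0.83 (-1.41 to -0.27), but 1017 bp from the end of Kcnh6. The control-only call of Kcnh6 is therefore a matter of the window.

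The regions of Cacng2, Kcnj2 and Kcna3 had no counterpart in H1C. Cacng2, a calcium channel gamma subunit known as an AMPA receptor partner, was open at its start (chr15:78119779-78120126) with a fold of 7.62 and a pileup of 37. That region was also close to an end of the noncoding gene A730060N03Rik, and the Cacng2 promoter window had no region in either library. Kcnj2, an inward rectifier that holds the resting potential of muscle and many other cells, was open over its promoter (chr11:111065832-111066256) with a fold of 7.22 and a pileup of 39. Kcna3, the voltage-gated channel of T cells, had 2 gene-end regions. The stronger one (chr3:107038001-107038550) had a fold of 5.59 and a pileup of 40. It lay at the transcription end of Kcna3 and close to an end of the noncoding gene AI504432. The other (chr3:107036401-107036672) had a pileup of 19.

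Lower folds, from 5.16 to 4.12, were those of Cacna1s, Kcnk5, Grina, Kcnk9 and Kcnab3. Cacna1s, the pore of the skeletal muscle calcium channel, was open near its transcription end with a pileup of 37. Kcnk5 and Kcnk9, acid-sensitive leak potassium channels, had pileups of 30 and 20. Kcnab3, another beta subunit, had 39, at an end that it shares with a neighbouring gene. Grina, named for the NMDA receptor but not a channel subunit of it, had 51 at its start coordinate, the highest control-only pileup after Kcnh6. Below them by fold came 10 genes, namely Grin2d, Cacna1g, Kcnk12, Kcna2, Kcnh4, Kcnk7, Scn2b, Kcnd1, Kcnk4 and Cacnb2, with control folds from 4.04 down to 2.81 and pileups from 28 down to 13. Where the strand was known, the region lay at the transcription start in 3 genes open in both and 9 open in control only, and at the transcription end in 1 and 5.

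Counted over the gene body and 10 kb on each side, the channel loci held 250 control and 81 H1C regions in 26.9 Mb. That is 0.928 regions per 100 kb in control (exact Poisson 95% interval 0.817 to 1.05) and 0.301 in H1C (0.239 to 0.374). All protein-coding genes gave 1.90 and 0.834. The count in control was 3.09 times that in H1C, against 2.28 times over all genes. Of the channel genes, 55 had a region in both libraries, 47 in control only, 3 in H1C only and 65 in neither. In control 102 of 170 (60%) had a region, against 66.3% of all genes, and in H1C 58 (34.1%), against 49.8%. No region in the channel loci lay at a high-copy position, defined by a local background at least 5 times that of the genome.

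Channel genes are long, with a median length of 53266 bp against 17169 bp for all genes, and density was lower in longer genes of both kinds. Among genes under 20 kb, 49 channel genes had 3.38 control regions per 100 kb (2.51 to 4.45), and all genes of that length had 3.42. Between 20 and 100 kb, 60 channel genes had 2.07 (1.66 to 2.55) against 2.72. Over 100 kb, 61 channel genes had 0.539 (0.445 to 0.647) against 1.07. In control, the difference in density over body and flanks was thus seen in the longer genes and not in the short ones. Under 20 kb, 8 of 50 control regions of channel genes were intragenic, and 1247 of 8704 of all genes. The rest lay at an end of some protein-coding gene or in the flanks. In H1C, channel genes under 20 kb had 1.22 regions per 100 kb (0.721 to 1.92) against 1.78. The classes were not matched for length within them. Over 100 kb the median length was 298320 bp for channel genes and 171832 bp for all genes. Under 20 kb it was 10500 bp and 6325.5 bp, and from 20 to 100 kb 44722.5 bp and 38244 bp. The gene ends differed in every length class: a gene-end region in control was present in 20.4% of channel genes under 20 kb against 41.1% of all such genes, in 20.0% against 57.2% from 20 to 100 kb, and in 4.92% against 42.9% over 100 kb.

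**Figure D2:**
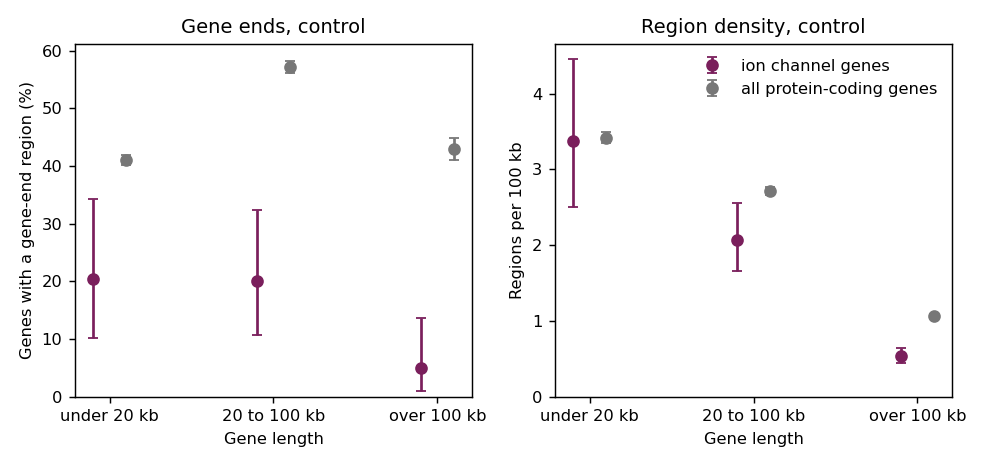
Share of genes with a gene-end region in control (left, percent) and control regions per 100 kb of gene body plus 10 kb (right), by gene length, for the 170 channel genes (purple) and all protein-coding genes (grey). Bars are exact 95% intervals for counting error. The channel genes lie below all genes at every length on the left, and on the right the points meet under 20 kb, at 3.38 and 3.42.

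By role, the pore-forming genes of voltage-gated potassium channels came first in number. These 40 genes held 43 control and 13 H1C regions, 0.765 and 0.231 per 100 kb, and 6 were open at an end in control and 0 in H1C. The 15 inward rectifiers (Kcnj) had the highest density of the 13 groups plotted, 2.66 per 100 kb in control (1.76 to 3.84) and 0.569 in H1C. Of their 28 control regions 10 lay in Kcnj6, and Kcnj2 was the only one with a gene-end region. The groups were not matched for length, and density was lower in longer genes. Median length was 29675 bp for inward rectifiers, 298228 bp for AMPA and 394963 bp for kainate receptor genes. The 14 leak channels (Kcnk, labelled two-pore K in the plot) had 2.52 and 0.706, with 5 genes open at an end in control and 0 in H1C. The 8 calcium- or sodium-activated potassium channels had 0.753 and 0.201, and both of their control gene ends, Kcnn1 and Kcnn4, were also open in H1C. The 17 auxiliary genes of potassium channels had 1.01 and 0.349, with 2 gene ends in control and 1 in H1C.

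The 10 pore genes of calcium channels held 32 control and 11 H1C regions, 1.25 and 0.431 per 100 kb, with 3 control gene ends. Their 16 auxiliary genes had 23 and 10, 0.796 and 0.346 per 100 kb, with 3 control gene ends. None of the 10 sodium channel pore genes had a gene-end region in either library, and they held 14 control and 5 H1C regions in body and flanks. The sodium channel beta subunit Scn2b, 1 of 4 such genes, was open at its start in control with a pileup of 22.

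Among the receptor genes, GABA-A and AMPA receptors had the lowest control densities of the 13 groups plotted, and kainate and NMDA receptors did not stand apart. The 19 GABA-A receptor genes had no gene-end region in either library and held 7 control and 2 H1C regions, 0.231 (0.0927 to 0.475) and 0.0659 per 100 kb. The 4 AMPA receptor genes had 0 regions in control and 1 in H1C, inside Gria1 (chr11:57026757-57026956) with a pileup of 18. The 5 kainate receptor genes had 16 and 6 regions, 0.839 per 100 kb in control, of which 10 and 2 were in Grik4. The 7 NMDA receptor subunit genes had 14 and 6, 1.07 per 100 kb in control, and Grin2d was the only one of them with a gene-end region, in control.

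**Figure D3:**
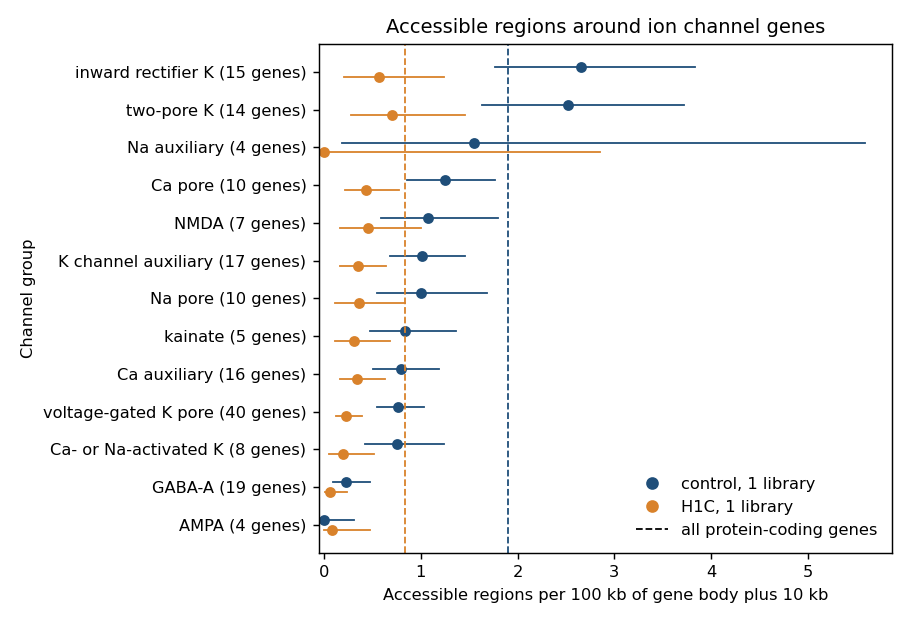
Accessible regions per 100 kb of gene body plus 10 kb for 13 groups of channel genes, in control (blue) and H1C (orange), 1 library each, with exact Poisson 95% intervals for counting error. Dashed lines give all protein-coding genes, 1.90 in control and 0.834 in H1C, and the GABA-A and AMPA receptor genes lie at the bottom. Grina, which is in no group, is left out.

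The genes with the most control regions were Cacna1d, Grik4 and Kcnj6 with 10 each, Kcnip1 with 8, and Cacna1c, Cacnb1 and Kcnk13 with 6 each. In H1C these genes had 3, 2, 2, 3, 1, 4 and 2. Cacna1d and Cacna1c are pores of the L-type calcium channel, Kcnj6 is an inward rectifier opened by G proteins, and Kcnip1 is a calcium-binding partner of potassium channels. All 10 regions of Grik4 and of Kcnj6 lay inside the gene, with control pileups of 14 to 24 and 13 to 23, and 1 region of each overlapped a region in H1C. Per length, among genes of at least 20 kb, Cacnb1 was the densest, with 14.4 control and 9.63 H1C regions per 100 kb. Kcnip2 (11.3 and 2.27), Scn4a (7.35 and 2.94), Kcnn1 (7.05 and 2.35) and Grin2d (6.74 and 3.37) came next. In this order, these genes from Cacnb1 on had 6, 5, 5, 3 and 4 control regions, of which 1, 2, 2, 1 and 1 were intragenic. The others lay at an end of some protein-coding gene or in the flanks. Some were at ends of neighbouring genes, namely Arl5c, Oga, Cd79b, Ccdc124 and Kdelr1.

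The longest genes without any region in either library were Cacna2d3 (817833 bp), Grik2 (696482 bp), Kcnd2 (514460 bp), Gabrb1 (491652 bp) and Kcnn2 (417138 bp). They encode a calcium channel auxiliary subunit, a kainate receptor subunit, a transient potassium channel, a GABA-A receptor subunit and a small-conductance potassium channel. Whole clusters were without a region too. The X cluster of Gabre, Gabra3 and Gabrq spanned 586 kb. The sodium channel cluster of Scn1a, Scn9a and Scn7a on chromosome 2 spanned 514 kb, and neither list had an entry in the span of these genes. In contrast, the span with Kcnh6 and Scn4a had 24 control and 13 H1C regions, of which 12 and 9 lay at an end of some protein-coding gene.

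The regions fell into 4 classes by position. In control, 29 lay at an end of a channel gene, 32 at an end of another gene, 147 inside a channel gene and 42 in the flanks. The number also called in H1C was 6 of 29 (20.7%, 7.99 to 39.7%) at channel gene ends, against 62.9% of gene-end regions of all genes. It was 23 of 32 (71.9%, 53.3 to 86.3%) at ends of other genes, 19 of 147 (12.9%, 7.96 to 19.4%) inside channel genes, against 21.0% inside genes of all kinds, and 9 of 42 in the flanks. In all, 57 of 250 (22.8%, 17.7 to 28.5%) were also called in H1C, against 38.4% for all genes. With the control list shortened to the length of the H1C list by −log10 p, the shares were 62.5% against 70.2%, and inside genes 50% against 50.2%. Of the 81 H1C regions, 5 were at channel gene ends, 25 at ends of other genes, 38 inside channel genes and 13 in the flanks.

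The authors' values for these regions were low within each list. In control the median fold was 3.81 (quartiles 3.35 to 4.81) against 4.60 for regions of all genes, the median −log10 p was 8.01 against 12.4 and the median −log10 q was 5.30 against 9.46. The summit lay a median of 146.5 bp from the left edge of the region, against 164 bp. In H1C the medians were a fold of 4.07 against 4.51, a −log10 p of 9.70 against 12.2, a −log10 q of 6.44 against 8.76 and a summit offset of 144 bp against 158 bp. Inside channel genes the control fold was a median of 3.62, against 4.04 for intragenic regions of all genes. The median pileup of the channel regions was 21 against 30 in control and 25 against 29 in H1C.

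Inside the genes, a few control regions stood out by fold. Cacnb2, another calcium channel beta subunit, had the highest, 8.58, in a region 27897 bp from its nearest end (chr2:14631617-14632051), with a pileup of 56 in control and 26 in H1C and a log2 ratio of -1.25 (-1.98 to -0.55). Kcnq1, a potassium channel of heart and inner ear, had a fold of 8.43 over the Kcnq1ot1 promoter printed above (chr7:143296381-143296863). Its pileup was 59 in control and 34 in H1C, with a log2 ratio of -0.94 (-1.59 to -0.30). Kcnq1ot1 is known as an imprinted antisense RNA, and the lists do not separate the parental alleles.

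Kcnip1 had a fold of 6.12 (chr11:33931944-33932268) at an end of the noncoding gene Gm36395, with pileups of 48 and 27. Cacna1d had a fold of 6.08 (chr14:30465191-30466116), with pileups of 35 and 21. These regions of Cacnb2, Kcnq1, Kcnip1 and Cacna1d were all called in H1C too.

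In the H1C list, the highest intragenic folds were those of Kcnq1 (5.16), Kcnk13 (4.98), Cacna1e (4.63 and 4.39) and Cacnb2 (4.53). The Kcnk13 region (chr12:100009337-100009570, pileup 27) and the first of the Cacna1e regions (chr1:154781285-154781543, pileup 24) were in H1C only. The second Cacna1e region (chr1:154489378-154489785 in control) had nearly equal pileups, 25 in control and 24 in H1C, with a log2 ratio of -0.20 (-1.07 to 0.67). Kcnk13, a leak channel, also had a region over its own promoter window, with pileups of 33 and 25 and a log2 ratio of -0.54 (-1.35 to 0.25).

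Many of the strongest regions in the channel loci belonged to neighbouring genes. Of the 57 control regions also called in H1C, 29 (50.9%) lay at an end or in a promoter window of another gene, against 15 of the 193 in control only (7.77%). In H1C this was 30 of 81 (37.0%), and 0 of the 22 that were in H1C only. The 10 kb around Kcnk6 held 1 region, at Yif1b, with a control pileup of 95 and an H1C pileup of 67. Near Kcnj14 the region at Cyth2 had 102 and 62, near Kcnip2 the region at Oga had 88 and 53, and near Kcnh4 the region at Rab5c had 97 and 57. The highest pileup of all, 114 in control and 68 in H1C, lay in the flank of Grik5, inside Zfp574. Cacna1f, a calcium channel pore gene, lies beside the synaptic vesicle gene Syp, and the region at Syp had pileups of 21 and 25 and a log2 ratio of 0.11 (-0.79 to 1.02). With regions at an end or in a promoter window of another gene left out, which keeps the region inside Zfp574, 28 of 206 (13.6%) control regions were also called in H1C.

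Whether a control region was also called in H1C went with its height. Of regions with a control pileup up to 20, 9 of 121 were also called in H1C (7.44%). From 21 to 30 it was 7 of 62 (11.3%), from 31 to 40 it was 8 of 31 (25.8%), from 41 to 60 it was 13 of 16 (81.2%), and above 60 it was 20 of 20. The same steps over all genes gave 7.79%, 13.5%, 34.5%, 75.2% and 98.2%, and each lay within the interval of the channel loci. Low regions, up to 20, made up 48.4% of the channel regions and 22.6% of those of all genes. Weighted to the pileups of the channel regions, all genes would have given 24.1%, beside the 22.8% observed. Without the ends of any gene, the channel loci gave 14.8%, against 13.5% for all genes at the same pileups and 21.0% unweighted.

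**Figure D4:**
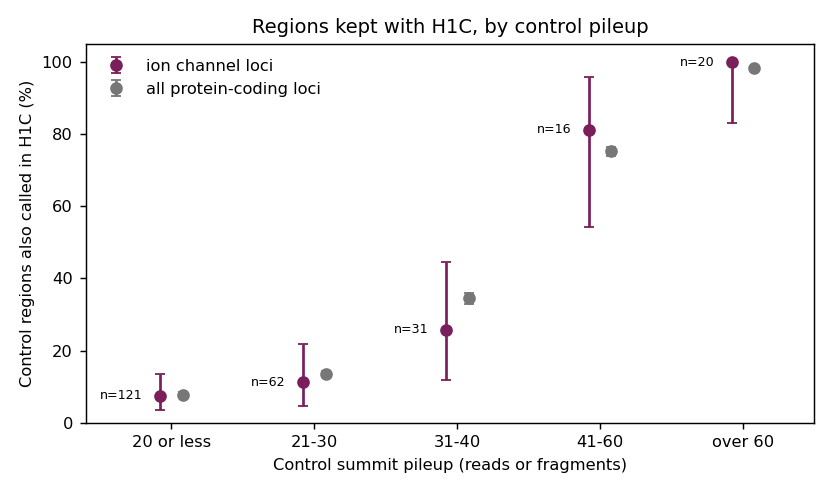
Share of control regions also called in H1C (percent) by control summit pileup (reads or fragments), for the 250 regions of the channel loci (purple, with their number) and the regions of all protein-coding genes (grey), with exact 95% intervals. Both rise from under 8% at a pileup up to 20 to over 98% above 60, and the grey points lie within the purple intervals.

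For the 57 control regions with a counterpart, the log2 ratio of pileups, H1C over control and scaled for depth, had a median of -0.72 (quartiles -0.89 to -0.43, range -1.65 to 0.31), and 50 of 57 were below 0. Over 9366 such regions of all genes the median was -0.81, and 8973 (95.8%) were below 0, against 87.7% of the 57. The ratio also went with height. In the channel loci its median was 0.12 for the 9 regions with a control pileup up to 20 and -0.82 for the 20 above 60, and over all genes it was 0.02 and -0.92. A low region enters this set only where H1C also passed the caller's threshold, so the low steps hold no region that H1C did not call. The highest ratio was in the sodium channel gene Scn8a, with pileups of 19 and 26 (0.31, -0.60 to 1.25), and its interval included 0.

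**Figure D5:**
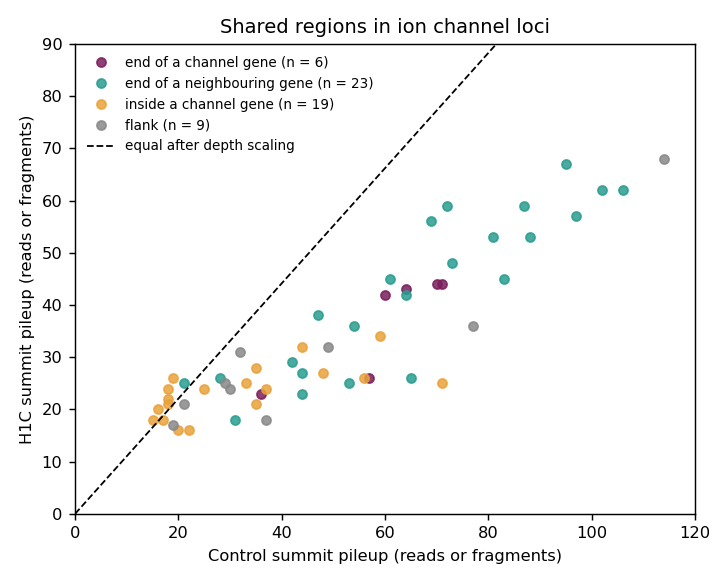
Summit pileup (reads or fragments) in control and H1C of the 57 control regions of the channel loci also called in H1C, coloured by position. The dashed line marks equal height after scaling by 1.10, and 50 of the 57 points lie below it. Over all genes, 95.8% of such regions would lie below it.

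H1C had 22 regions in the channel loci that control lacked, 27.2% of its 81, against 10.9% of the H1C regions of all genes. Their pileups were 15 to 27 with a median of 20, so all were low. None lay at an end of a protein-coding gene: 19 were inside channel genes and 3 in the flanks. Among H1C regions away from gene ends with a pileup up to 20, 7 of 22 were also called in control (31.8%, 13.9 to 54.9%), against 48.2% over all genes. From 21 to 30 it was 15 of 22 (68.2%, 45.1 to 86.1%), against 80.9%. Cacng2 had 2 H1C-only regions, and 20 other channel genes had 1 each, Kcnk13, Cacna1e, Scn8a and Gria1 among them. In all genes, 89.1% of H1C regions were also called in control, and in the channel loci it was 59 of 81 (72.8%).

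A list of 20 channel genes known from blood, immune cells or many tissues held 7 of the 25 open gene ends in control (35.0% of the list) and 3 of the 5 in H1C, namely Kcnab2, Kcnn4 and Cacnb1 (15% of the list). Both shares lay below those of all genes, 46.9% in control and 33.6% in H1C. Their intervals, 15.4 to 59.2% in control and 3.21 to 37.9% in H1C, included those values. The 4 open in control only were Kcna3, Kcnk5, Kcnj2 and Grina. The 13 without a gene-end region were Kcne3, Kcnk6, Kcnk13, Kcnq1, Kcnh2, Cacnb3, Cacnb4, Cacna1d, Cacna1e, Kcnip3, Kcnrg, Kcnq5 and Kcnab1, and of these Kcnip3 had no region of any kind. Kcne3, a beta subunit of epithelial potassium channels, had 1 control region, with a pileup of 22, over its internal promoter window and that of Gm51453. The region of Kcnrg in control, with a pileup of 36, lay over the promoter of Trim13. Among the 150 channel genes outside the list, 18 were open at an end in control (12%) and 2 in H1C, Cacna1a and Kcnn1.

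Channels that do not carry these symbols were read in the same way. Of 38 channel genes of blood and many tissues, such as the calcium entry gene Orai1, the calcium release gene Itpr1 and the mitochondrial channel gene Vdac2, 32 had a control gene-end region (84.2%) and 26 of those also had one in H1C (81.2%). For Itpr1 the control pileup was 85 and the H1C pileup 42, for Orai1 65 and 46, and for Vdac2 81 and 39. Of 46 other channel genes of excitable tissue, such as acetylcholine, glycine and ryanodine receptors, 8 had a control gene-end region (17.4%) and 4 also had one in H1C (Chrnb1, Chrne, Asic1 and Hcn3). The latter list thus lay near the 14.7% of the 170 genes, and the former above the 46.9% of all genes.

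The label of the cells was checked against markers. Of 15 stem cell genes, 9 had a gene-end region in control and 2 in H1C, against 46.9% and 33.6% of all genes. Runx1 and Mllt3 were open in both, Kit, Meis1, Slamf1, Hlf, Ly6a, Gfi1b and Tal1 in control only, and Cd34, Procr and Gata2 had no region in either library. Neuron genes gave 4 of 12 in control and 1 in H1C (Syp), muscle genes 3 of 10 and 1 (Ckm), and glia genes 2 of 6 and 0. Myeloid genes gave 2 of 6 and 0, lymphoid genes 5 of 6 and 2, erythroid and megakaryocyte genes 1 of 6 and 0, and mast cell genes 0 of 4 in both. The part of other cell types in the channel regions was not tested.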

How the data were processed

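Accessible regions of 2 ATAC-seq libraries, 1 control and 1 H1C, were analysed, grouped by their treatment label. The submitters' processing notes name the build mm10 and 5 tools, namely featureCounts, MACS2, Picard, Bowtie2 2.2.9 and Trim Galore 0.4.4. Their settings are not given in the sources used here, nor is it stated whether duplicates were removed or cut sites shifted, and either could change summit heights. Regions were called per sample, since 1 list was deposited for each library.

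The deposited fold is the authors' ratio of summit pileup to local background, each with 1 added. The deposited −log10 p and −log10 q come from the authors' caller, and the lowest −log10 q was 1.31 (control) and 1.34 (H1C). The score that the authors deposited equals the whole part of 10 times −log10 q in 99.97% of control entries and was not used further. The deposited summit offset counts from the left edge of a region. The lists hold no read totals. The pileup and local background were solved from fold and Poisson −log10 p, and the pileup was a whole number (relative tolerance 0.0001) for 32005 of 32005 control and 13156 of 13156 H1C entries. On simulated data the solver recovered 3000 of 3000 pileups.

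Touching entries were merged, and regions were matched by 1 bp of overlap. The gene table gives start and end coordinates. Strand was taken from the promoter table where a gene had an entry there. Gene-end regions lie within 1000 bp of either end, and intragenic regions lie in a gene body away from the end of any protein-coding gene. Where a region lay near several channel genes it was counted once. Shares carry exact Clopper-Pearson, densities exact Poisson and pileup ratios exact conditional binomial 95% intervals, for counting error only.

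The channel genes, the gene lists and the rule for named genes were chosen with earlier results of these data known. The rule took every gene open at an end in both libraries or in H1C only, the 10 control-only genes of highest fold, the 5 genes with most control regions (2 more tied for the last place), the 5 densest of at least 20 kb, the 5 longest without a region, the 5 intragenic regions of highest fold in each list, and the list of blood channels. A few genes that this rule picks are not reported here. The other control-only genes, the clusters, neighbouring genes and highest ratios were chosen after their values were seen. The software was matplotlib 3.10.9, scipy 1.17.1, pandas 2.3.3 and numpy 2.4.6 under Python 3.11.15. Alternatives covered a −log10 q of at least 5, other windows, flanks and overlap rules, lists of equal length and other depth scalings.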

Additional observations from a re-analysis of the deposited data

How the results depend on the processing

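Of 40 alternatives over 11 results, 22 kept the value and 18 moved it. A share or density was kept within its counting interval, and a count within 1.5 times. A median was kept within the quartiles over regions, which are a spread of regions and not an error of the median. Only the median log2 ratio has a sign that could reverse, and it stayed below 0 in each of its alternatives. With a −log10 q of at least 5, control regions numbered 142 (0.527 per 100 kb, all genes 1.48) and H1C regions 50 (0.186, all genes 0.640). With gene bodies alone, the control density was 0.728 (all genes 2.03), H1C regions numbered 44 (0.186 per 100 kb, all genes 0.928) and 14.5% of control regions were also called in H1C (all genes 41.2%). With 50 kb of flank there were 535 control regions (1.38 per 100 kb, all genes 1.69) and 188 H1C regions (0.483, all genes 0.707), so the gap in control density was wider for gene bodies and narrower for wide flanks. With the control list shortened to the length of the H1C list by −log10 p, 62.5% of channel regions were also called in H1C against 70.2% for all genes, and 50% against 50.2% for intragenic regions. Leaving out regions at an end or promoter window of other genes, chosen after seeing the data, gave 13.6%. The share of channel genes with a control gene-end region was 8.82% within 500 bp and 25.3% within 2500 bp, against 44.1% and 52.1% of all genes. Scaling by the local background at shared summits moved the median log2 ratio from -0.72 to -0.38. For these results the cause was not tested beyond what each alternative's construction fixes. No paired analysis was possible because control and H1C had only 1 library apiece. Depth limits the lists at pileups of 12 in control and 14 in H1C, the lowest called, so lower regions were not detectable.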
